A study of Mus musculus with 4 samples.

Results

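Trp53 and its close relatives Trp63 and Trp73, the inhibitors Mdm2 and Mdm4 and the target Cdkn1a were followed probe by probe in 2 mouse testicular germ cell lines, GC-2 and GC-1. The members were taken as all non-control probes whose gene name in the scanner files is 1 of these 6 symbols. This gave 19 probes of 56605 on the array, 6 of 37074 gene names: 1 for Trp53, 4 for Trp63, 3 for Trp73, 2 for Mdm2, 6 for Mdm4 and 3 for Cdkn1a. GC-2 was derived from spermatocytes with SV40 large T antigen and an introduced temperature-sensitive p53. GC-1 comes from spermatogonia of type B that received SV40 large T antigen alone, so that both lines carry the viral protein. Per the labels, both were grown with 10% serum at 37 °C under 5% CO2 and harvested at 90% confluence. RNA of each line was hybridised to 2 one-colour arrays, GC-2 replicates 1 and 2 and GC-1 replicates 1 and 2. Each line is a single established cell line. Nothing in the labels ties the replicates to separate cultures, and the p-values thus reflect the spread between these arrays alone, which may be technical.

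p53 is a transcription factor that binds DNA as a tetramer and halts the cell cycle or starts apoptosis after damage. Mdm2 is the ubiquitin ligase that marks p53 for breakdown and is itself a p53 target, and Mdm4 is a relative of Mdm2 that binds p53 and blocks its activity. Cdkn1a encodes the cyclin-dependent kinase inhibitor p21, the best known mediator of the cell cycle arrest. SV40 large T antigen binds p53 and the retinoblastoma proteins, and a temperature-sensitive p53 has wild-type activity only at lowered temperature. In the mouse, p63 is known for its role in squamous epithelia and in the quality control of oocytes, and p73 for roles in neurons, multiciliated cells and the seminiferous epithelium.

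The 5 probes below carry the points that turn on sequence: the only Trp53 probe, the brightest Trp63 probe, which holds a CAG repeat, an Mdm2 probe that spans an intron, and neighbouring Mdm4 probes that share bases. All are 60-base sense sequences from the scanner files, written 5′ to 3′, with positions on mm9. Capitals mark the 6 CAG units in the Trp63 probe and the 6 bases shared by the Mdm4 probes.
Trp53 A_52_P491849, chr11:69403134-69403193, plus strand: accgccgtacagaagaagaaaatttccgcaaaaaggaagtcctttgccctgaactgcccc
Trp63 A_55_P2161055, chr16:25871159-25871218, plus strand: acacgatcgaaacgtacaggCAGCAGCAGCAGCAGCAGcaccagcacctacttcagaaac
Mdm2 A_55_P2606086, chr10:117139375-117142253, minus strand: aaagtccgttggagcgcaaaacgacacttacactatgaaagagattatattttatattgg
Mdm4 A_55_P2617573, chr1:134907660-134907719, minus strand: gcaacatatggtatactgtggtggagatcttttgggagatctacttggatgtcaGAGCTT
Mdm4 A_55_P2617568, chr1:134905734-134907665, minus strand: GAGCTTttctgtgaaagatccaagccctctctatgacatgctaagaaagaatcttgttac

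By the 75th percentile of the probe signal, the GC-2 arrays were dimmer than the GC-1 arrays. It was 416 and 199.9 in GC-2 and 666 and 693 in GC-1, and 57.5% to 64.9% of the probes were well above background on an array. Levels are therefore given in both forms, as the processed signal of the spot and as its log2 minus the 75th percentile of its array, called the normalized level. On that scale 8 spike-in probes for E1A control RNA, of 10 on the array and all 8 well above background on every array, were higher in GC-2 by 2.07 log2 (SD 0.46 over probes). A change scaled to them instead is lower by that amount. Before scaling, the mean log2 signal of these spike-in probes was 13.02 and 12.43 in GC-2, against 11.86 and 11.92 in GC-1. They were thus brighter on the GC-2 arrays even then. All 4 arrays lay on 1 slide, with GC-2 in one row and GC-1 in another, so that row and line cannot be told apart. Of 8 germ cell markers, Zbtb16 and Gfra1 were well above background on both arrays of both lines and Ddx4 on 1 GC-2 array and both GC-1 arrays. Dazl and Kit were above it on no array, Sycp3 on 1 GC-2 array, and Stra8 and Sycp1 on 1 GC-1 array each. The brightest Zbtb16 probe had signals of 18.8 and 10.2 in GC-2, against 26.3 and 30.9 in GC-1. For Ddx4 they were 16.4 and 1.56 in GC-2, against 12.9 and 12.7 in GC-1. Both were near the limit of detection, the lowest signal well above background being 7.72 to 11.45 on an array. The labelled germ cell type thus rests on few of its defining markers. Of the markers of other testis cells, those that changed most were Wt1, which fell by 6.29 ± 0.26 log2, and Nr5a1, which rose by 6.18 ± 0.23 log2 in GC-2 (SE, n = 2 arrays per line). Over the lists, 1 of 4 Sertoli cell markers was higher and 1 lower, 3 of 4 Leydig cell markers were higher and 1 lower, and 1 of 3 myoid cell markers was higher. Of the 3 germ cell markers that could be tested, Gfra1 was higher, by 4.52 ± 0.35 log2, and 0 were lower. Its signals were 224 and 196.8 in GC-2, against 19.5 and 23.7 in GC-1. Over all genes by their brightest probe, 20% were higher and 23.3% lower. The lower Leydig cell marker, Cyp11a1, was not well above background on either GC-2 array. Set against the lowest signal well above background there, its GC-1 level was only 0.56-fold, so that a fall was not shown. The part of these markers in the results below was not tested.

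Of the 14 member probes that could be tested, 8 were higher in GC-2 and 0 lower at limma's adjusted p under 0.05. They were the Trp53 probe, 1 of 2 Mdm2 probes, 5 of 6 Mdm4 probes and 1 of 2 tested Cdkn1a probes, while neither tested Trp63 probe nor the tested Trp73 probe passed. Over all 36693 tested probes, 24.1% were higher and 21.6% lower. The probes are not independent, since 6 belong to Mdm4, and 2 of the 8 entered the test only because they were above background in GC-2. Without GC-2 replicate 2 the count was 4, and without either GC-1 replicate 5. It also rests on the scaling: relative to the E1A probes 2 of the 14, those for Trp53 and for an Mdm4 transcript, were higher and 8 were lower. That Mdm4 probe, A_55_P2716152, was not well above background on either GC-1 array, so that its rise on this scale has no measured GC-1 level. On the normalized scale the lines did not overlap for 11 probes with GC-2 above and 0 with GC-2 below, against 40.7% and 36.3% of all tested probes. Before any normalization, the signals of the lines did not overlap for 4 probes that were brighter in GC-2 and 4 that were dimmer, against 10.4% and 67.6% of all tested probes, and they overlapped for 6.

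**Figure D1:**
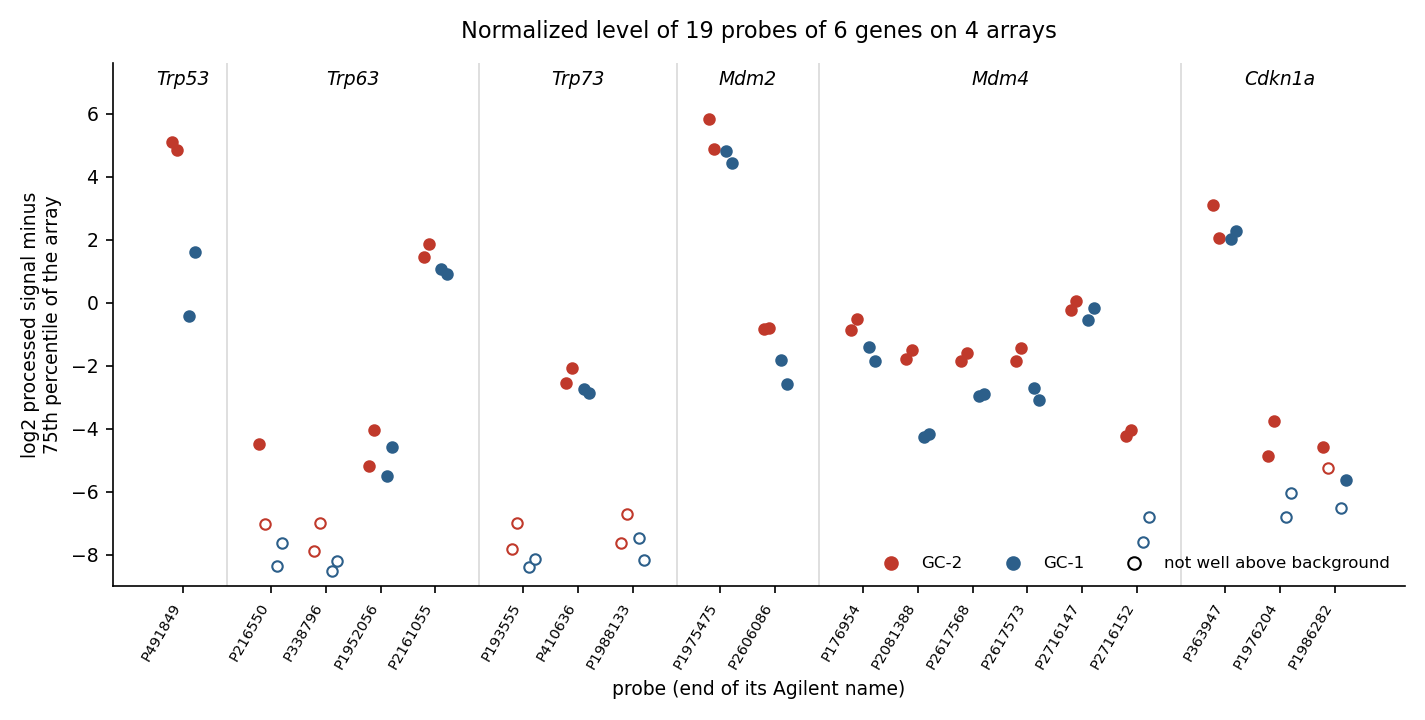
Normalized level (log2 processed signal minus the 75th percentile of the array) of each of the 19 probes on each array, GC-2 in red left of GC-1 in blue, with open circles for spots not well above background. The GC-2 points lie above the GC-1 points for 11 of the 14 tested probes, most widely for the Trp53 probe and for 2 Mdm4 probes, while 2 Trp63 and 2 Trp73 probes are open on nearly every array.

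Trp53 was the only one of the 6 genes whose brightest probe passed the threshold, against 20% of all genes higher and 23.3% lower. Its signal was 14409 and 5791 on the GC-2 arrays, against 495 and 2113 on the GC-1 arrays. Both GC-2 signals were above both GC-1 signals even without scaling for the dimmer GC-2 arrays. The normalized level was 5.11 and 4.86 in GC-2, against -0.43 and 1.61 in GC-1, a rise of 4.39 ± 0.66 log2 or 21.0-fold (limma, adjusted p = 0.00462). Scaled to the E1A probes the rise was 2.33 log2 (limma, adjusted p = 0.00147). Its size was less settled than its direction, because the GC-1 replicates lay 4.27-fold apart in signal. Their SD of 1.44 log2 was larger than that of 99.7% of the 30317 probes well above background on all 4 arrays, while the GC-2 SD of 0.18 log2 was larger than that of 52.1%. Without GC-1 replicate 1 the rise was 3.38 log2 and without GC-1 replicate 2 it was 5.41 log2 (limma, adjusted p = 0.0110 and 0.00774). Between arrays in the same column of the slide it was 5.54 log2 in the first column and 3.25 log2 in the second. With only 1 probe, no second measurement on the array bears on this gene, and RNA of the introduced p53 and of the endogenous gene cannot be told apart by it. The probe targets the transcript NM_011640 from base 989 and shares no run of 16 bases with any other probe on the array, on either strand.

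Other genes had profiles near that of Trp53 over the 4 arrays. Among 13491 named genes whose brightest probe was well above background on all 4 arrays, likeness was the root mean square difference of the log2 values from those of Trp53, each profile centred on its own mean. The nearest were Elmod2, an Arf GTPase-activating gene, at 0.28, the U1 small nuclear RNA gene Rnu1b6 at 0.29, the transmembrane protein gene Cmtm4 at 0.31, the U1 gene Rnu1b1 at 0.31 and the schlafen gene Slfn8 at 0.33. Centred on its own mean, Trp53 stood at 2.33 and 2.07 in GC-2, against -3.22 and -1.18 in GC-1, and Elmod2 at 2.14 and 1.70 in GC-2, against -2.93 and -0.91 in GC-1. The likeness is over 4 arrays alone and was searched for, and it was not tested.

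The Trp63 probes disagreed on whether the gene was measured at all. The probe A_55_P2161055 was bright on every array, with signals of 1141 and 727 in GC-2, against 1386 and 1293 in GC-1. Its normalized level stood 0.68 ± 0.26 log2 above GC-1 in GC-2, short of the threshold (limma, adjusted p = 0.0824), and 1.39 log2 lower when scaled to the E1A probes. The other 3 were near or below the limit of detection. The probe A_55_P1952056 had signals of 11.6 and 12.1 in GC-2, against 14.6 and 29.2 in GC-1, where the lowest signal well above background was 7.72 to 11.45 on an array. A negative control spot reached 15.0 on GC-1 replicate 2. Its change was 0.43 ± 0.50 log2 (limma, adjusted p = 0.511), and -1.64 log2 on the E1A scale. The probe A_51_P216550, for the reference transcript NM_011641, was above background on GC-2 replicate 1 alone, at a signal of 18.7, with 1.55 on GC-2 replicate 2 and 2.04 and 3.54 in GC-1. A_52_P338796 was above background on no array, at signals from 1.56 to 2.37.

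The bright Trp63 probe is the one with the CAG repeat printed above. It shares runs of 16 bases with probes of the genes Arhgap17, BC051142, Crebbp and Git2, whereas none of the other Trp63 probes shares such a run with another gene's probe. In all, 6 probes on the array hold at least 5 CAG units in a row, searched on the probe strand, and all 6 were well above background on all 4 arrays, against 53.6% of all probes. The Trp63 probe, already known to be bright, is itself among these 6. Whether the repeat sets the signal of the Trp63 probe was not tested. Without this probe, no Trp63 probe was brighter than 29.2 on any array.

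For Trp73 a single probe of 3 was above background. A_52_P410636 had signals of 71.6 and 47.5 in GC-2, against 100.04 and 96.1 in GC-1. It was thus dimmer in GC-2 before scaling and 0.49 ± 0.27 log2 higher after it, a change that did not pass (limma, adjusted p = 0.188). Scaled to the E1A probes it was lower by 1.58 log2. A_55_P1988133 shares 5 bases with this probe at its end, and yet it was above background on no array, with signals of 2.12 and 1.90 in GC-2, against 3.73 and 2.42 in GC-1. It also shares a run of 16 bases with a probe of Gm32232. A_52_P193555, lying 2.66 kb from the first Trp73 probe, had signals from 1.58 to 2.48 and was also above background on none. Both undetected probes target the same transcript, NM_011642, as the detected one. A signal was therefore found by 1 Trp73 probe and not by its neighbour, and whether that signal is Trp73 RNA was not tested.

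The inhibitor genes differed less than Trp53. The Mdm2 probe A_55_P1975475 had signals of 23573 and 5932 in GC-2, against 18688 and 14930 in GC-1. The GC-2 replicates thus lay on both sides of the GC-1 signals, and the normalized change of 0.74 ± 0.38 log2 did not pass (limma, adjusted p = 0.164). On the E1A scale it was -1.33 log2 (limma, adjusted p = 0.0142). The second Mdm2 probe, A_55_P2606086, lies over an exon junction, its ends being 2879 bases apart on the genome. Its signals were 234 and 115.6 in GC-2, against 187 and 116.1 in GC-1, and so overlapped before scaling. Its normalized level, -0.83 and -0.79 in GC-2, against -1.83 and -2.58 in GC-1, rose by 1.39 ± 0.32 log2 (limma, adjusted p = 0.0177). This call was lost without GC-1 replicate 2 or without either GC-2 replicate (limma, adjusted p from 0.0556 to 0.0655), and scaled to the E1A probes the value was -0.67 log2. The 2 probes of Mdm2 were not shown to change by different amounts: the second rose by 0.66 ± 0.41 log2 more than the first within arrays (limma, adjusted p = 0.248).

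Of the 6 Mdm4 probes, 5 passed the threshold with higher normalized levels in GC-2, against 24.1% of all tested probes. Of these 5, 4 rose by 0.94 to 2.56 log2 and the other has a lower bound alone. A_55_P2081388, the last along the gene, had signals of 120.02 and 70.7 in GC-2, against 35.0 and 38.4 in GC-1. Both GC-2 signals were the higher ones before any scaling, and the normalized level rose by 2.56 ± 0.24 log2 (limma, adjusted p = 0.00113). A_55_P2716152, the first along the gene and the probe of another transcript, had signals of 22.4 and 12.2 in GC-2, against 3.47 and 6.27 in GC-1. It was not well above background on either GC-1 array and exceeded GC-1 at least 3.82-fold in GC-2 (limma, adjusted p = 0.00172), the bound being set against the lowest signal well above background on each GC-1 array. It entered the test through GC-2 alone, and the adjusted p is that of the fit to its signals as they stood, not of the bound. Of the Mdm4 probes detected in both lines, A_55_P2081388 was the one whose call held without each replicate in turn.

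The probes in the middle of the gene, annotated to differing transcripts, changed less. The neighbouring probes A_55_P2617573 and A_55_P2617568, printed above, rose by 1.27 ± 0.28 and 1.22 ± 0.24 log2 (limma, adjusted p = 0.0159 and 0.0106). Their signals were 115.9 and 74.4, and 116.5 and 66.6, in GC-2, against 101.1 and 81.1, and 84.8 and 93.4, in GC-1, and so overlapped before scaling. The call of A_55_P2617568 was lost without GC-1 replicate 1 or GC-2 replicate 2, and that of A_55_P2617573 without GC-1 replicate 2 or GC-2 replicate 2 (limma, adjusted p from 0.0523 to 0.0786). A_55_P2617568 also shares 2 runs of 16 bases with a probe of Tcaf1. A_51_P176954 rose by 0.94 ± 0.28 log2 (limma, adjusted p = 0.0403), and this call was lost under 8 of the 12 alternatives run on it, all 4 with a replicate left out among them, beside turning to -1.13 log2 when scaled to the E1A probes. A_55_P2716147, the brightest of the 6, had signals of 357 and 207 in GC-2, against 452 and 616 in GC-1. It stood at 0.28 ± 0.27 log2 (limma, adjusted p = 0.426), and at -1.79 log2 on the E1A scale. Scaled to the E1A probes, A_55_P2081388 was 0.50 log2 higher, short of the threshold, and A_55_P2617568 and A_55_P2617573 were at -0.85 and -0.80 log2.

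**Figure D2:**
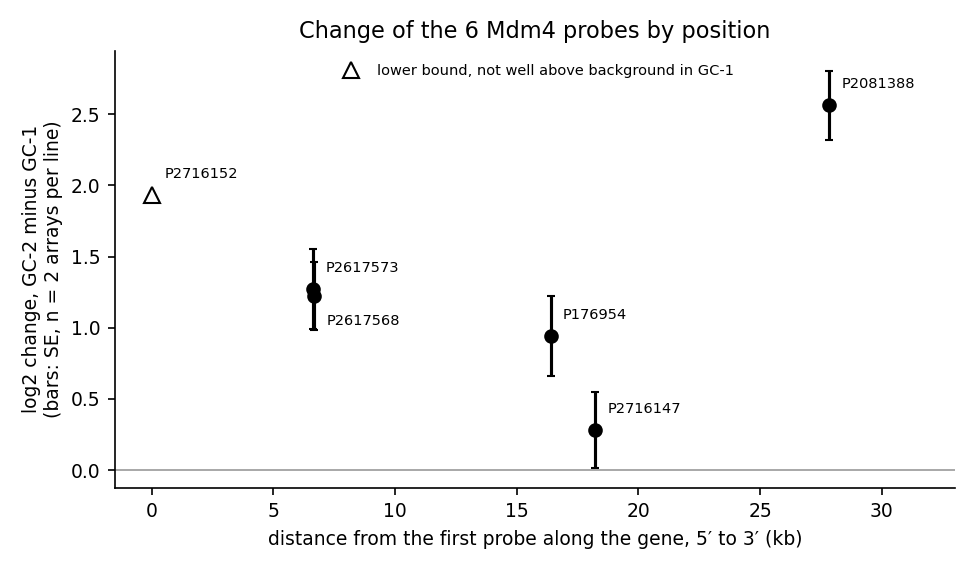
Log2 change, GC-2 minus GC-1, of the 6 Mdm4 probes (bars: SE, n = 2 arrays per line; open triangle: a lower bound, the probe not being well above background in GC-1) against their distance along the gene from the first probe, in kb. The probe at 27.9 kb changed by 2.56 log2 and the probe at 18.2 kb, annotated to another transcript, by 0.28 log2. The first probe is drawn at its bound of 3.82-fold.

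The Mdm4 probes detected in both lines did not change by 1 common amount. A_55_P2716147 is annotated to a transcript other than those of the probes set against it here. Position and annotated transcript were thus not told apart. Set against A_55_P2716147 within each array, where a shift of a whole array cancels, A_55_P2081388 rose by 2.28 ± 0.25 log2 more and A_55_P2617568 by 0.94 ± 0.25 (limma, adjusted p = 0.00444 and 0.0359). A_55_P2617573 and A_51_P176954 did not pass (limma, adjusted p = 0.0706 and 0.191). Such differences were common on these arrays: of 12590 further probes of all genes, 33.5% rose and 10.1% fell against the brightest probe of their gene. Of 8 further member probes 3 passed, all of them for Mdm4, near that share, and A_55_P2716152 among them has no measured GC-1 level. The difference of A_55_P2617568 was lost without each replicate in turn (limma, adjusted p from 0.0508 to 0.155), with quantile normalization, with no filter and with normexp (limma, adjusted p = 0.0750, 0.0657 and 0.0939). That of A_55_P2081388 held under all of these.

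**Figure D3:**
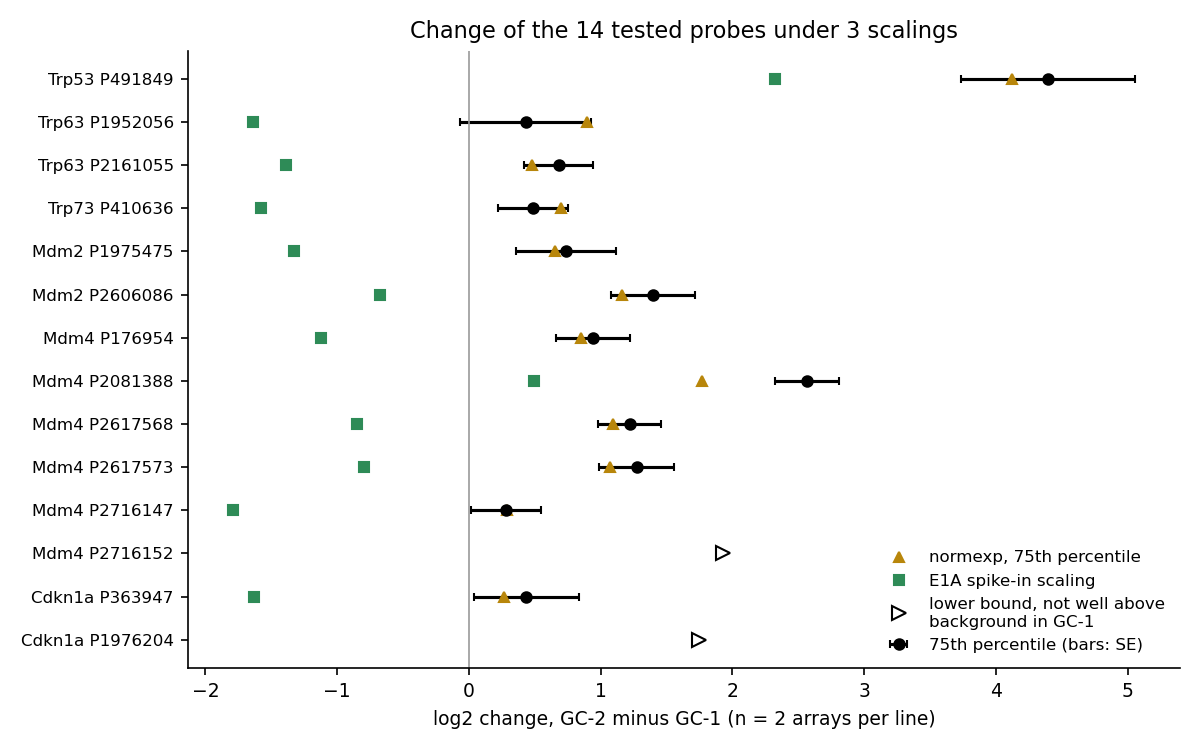
Log2 change, GC-2 minus GC-1, of the 14 tested probes under scaling to the 75th percentile (black, bars: SE, n = 2 arrays per line), the same after normexp background correction (triangles) and scaling to the E1A spike-in probes (squares). Open triangles are lower bounds under the 75th percentile scaling for the 2 probes not well above background in GC-1. The Trp53 probe lies at 4.39, 4.12 and 2.33 log2, whereas 10 of the other 11 probes with a measured change are below 0 under E1A scaling.

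Cdkn1a, the target, showed no settled change. Its brightest probe, A_51_P363947, had signals of 3607 and 822 in GC-2, against 2692 and 3335 in GC-1. Before scaling, the 2 GC-2 arrays lay above and below both GC-1 arrays. The normalized level was 3.12 and 2.04 in GC-2, against 2.02 and 2.27 in GC-1, and so overlapped. The normalized change of 0.44 ± 0.40 log2 did not pass (limma, adjusted p = 0.412). On the E1A scale it was -1.63 log2 (limma, adjusted p = 0.00522). Between arrays of the same slide column it was 1.101 log2 in the first and -0.23 log2 in the second. A_55_P1976204, the probe of another transcript, had signals of 14.3 and 14.8 in GC-2, against 6.01 and 10.6 in GC-1. It was well above background in GC-2 alone and at least 3.36-fold higher there (limma, adjusted p = 0.0156), a call lost without GC-1 replicate 1 and on the E1A scale (limma, adjusted p = 0.0986 and 0.930). It too entered the test through GC-2 alone, and its adjusted p values are those of the fit, not of the bound. A_55_P1986282 was above background on 1 array of each line, at signals of 17.3 and 5.26 in GC-2, against 7.31 and 13.96 in GC-1, and was not tested.

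The authors' deposited table gives Cdkn1a 1 value per array, and this value moved with the number of probes above background. In the authors' deposited table Cdkn1a stood at -1.81 and -0.72 log2 in GC-2, against 2.28 and -1.42 log2 in GC-1. Well above background were 3 and 2 of its 3 probes in GC-2, against 1 and 2 in GC-1, and each value in the authors' deposited table equalled the mean log2 signal of those probes plus 1 constant per array, to within 0.01 log2. On GC-1 replicate 1 the value was that of the bright probe alone, and on the other arrays 1 or 2 dim probes were averaged in. The bright probe itself had normalized levels of 2.02 and 2.27 in these GC-1 replicates. Fitted to the authors' deposited table, Cdkn1a changed by -1.70 ± 1.31 log2 (limma, adjusted p = 0.359), against 1.27 ± 0.26 log2 for the mean of both tested probes (limma, adjusted p = 0.0135), 1 of which had no measured GC-1 level. By the mean of probes 23.3% of genes were higher and 20.9% lower in GC-2, and in the authors' deposited table this was 18.8% and 18.5%. The same rule held for 99.8% of 3536 to 3927 gene names per array with several probes, some of them not above background, whereas the mean over all probes fitted 0%. For Trp53, with 1 probe, the authors' deposited table gave a rise of 4.35 ± 0.72 log2 (limma, adjusted p = 0.0141).

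**Figure D4:**
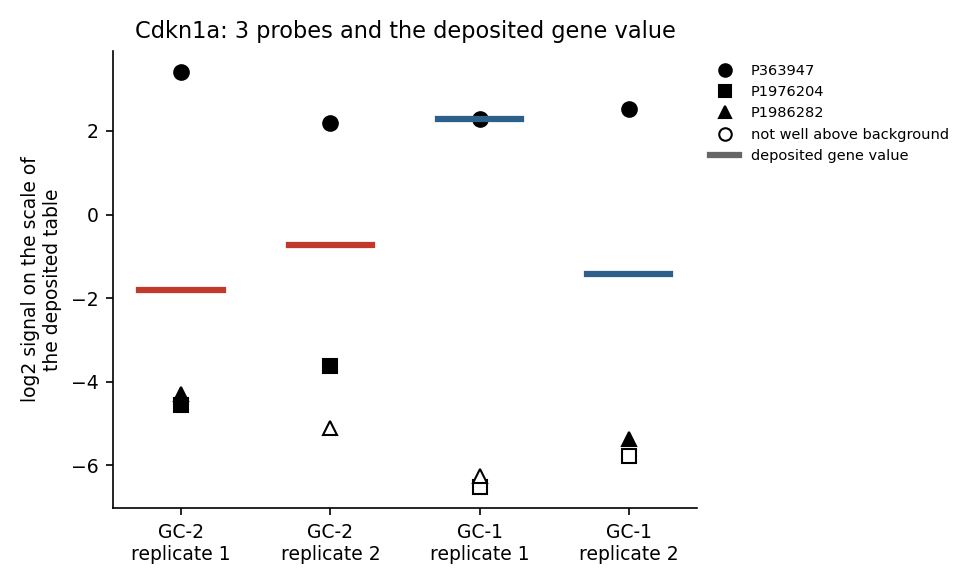
Log2 signal of the 3 Cdkn1a probes (symbols, open where not well above background) and the gene value of the authors' deposited table (bars, GC-2 red and GC-1 blue) on each array, on the scale of that table. The bar lies on the bright probe at 2.28 for GC-1 replicate 1 and between bright and dim probes, at -1.81 to -0.72, on the other arrays.

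Among genes that act on p53, changes went in both directions and most did not pass. Of 33 regulators and partners, 5 rose and 4 fell in GC-2 by their brightest probe, with a median of -0.10 log2, against 20% and 23.3% of 24103 genes and a median of -0.04 log2 over all genes tested. Leaving out GC-1 replicate 1 or GC-2 replicate 2 left 2 higher and 1 lower, and leaving out GC-2 replicate 1 left 4 and 2. Sirt1, a deacetylase of p53, rose by 2.48 ± 0.27 log2 and Otub1, which limits p53 ubiquitination, by 2.17 ± 0.28 log2 (limma, adjusted p = 0.00177 and 0.00294). Their signals were 1927 and 943 for Sirt1 and 2009 and 1104 for Otub1 in GC-2, against 666 and 485, and 918 and 661, in GC-1, without overlap before scaling. Rbbp6, a ring finger partner of Mdm2, rose by 1.42 ± 0.29 log2, the acetyltransferase gene Crebbp by 1.13 ± 0.27 and the damage kinase gene Atm by 1.09 ± 0.25 (limma, adjusted p from 0.0120 to 0.0209). The Crebbp value is that of a probe with the CAG repeat, and the mean of its 3 probes did not pass (0.74 log2; limma, adjusted p = 0.0745). The mean of the 5 Rbbp6 probes did not pass either (0.43 log2; limma, adjusted p = 0.187). On the E1A scale Sirt1 and Otub1 stood at 0.41 and 0.10 log2, short of the threshold, and Rbbp6, Crebbp and Atm at -0.65, -0.94 and -0.98 log2. Fitted to the authors' deposited table, Sirt1 stood at -0.44 log2, short of the threshold, and Otub1 at 1.59 log2 (limma, adjusted p = 0.247 and 0.0156).

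The falls were led by Ppp1r13b, which encodes the p53 partner ASPP1. It had signals of 1650 and 791 in GC-2, against 9195 and 12622 in GC-1, and fell by 2.001 ± 0.25 log2 (limma, adjusted p = 0.00279), with both its probes lower. The methyltransferase genes Kmt5a and Setd7 changed by -1.14 ± 0.25 and -1.03 ± 0.24 log2 and the deubiquitinase gene Usp7 by -1.03 ± 0.25 log2 (limma, adjusted p = 0.0160, 0.0199 and 0.0209). Probes of 1 gene went both ways here: Usp7 had 1 probe higher and 1 lower, Kmt5a and Atr 2 higher and 1 lower each, and Rbbp6 2 and 2. By the mean of their probes Usp7 and Kmt5a stood at 0.13 and 0.23 log2, short of the threshold. The kinases Atr, Chek1 and Chek2 stood at -0.01 ± 0.23, 0.69 ± 0.27 and -0.23 ± 0.32 log2. Cdkn2a, the products of which include the Mdm2 inhibitor p19Arf, stood at -0.55 ± 0.23 log2. All were short of the threshold by the brightest probe. The other probe of Chek1 and of Cdkn2a was higher, and the mean of both probes was 2.07 log2 for Chek1 and 0.28 log2 for Cdkn2a (limma, adjusted p = 0.00191 and 0.384). The signals of the brightest Cdkn2a probe were 39798 and 16592 in GC-2, against 88329 and 89174 in GC-1. Which Cdkn2a transcript this probe detects was not tested.

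**Figure D5:**
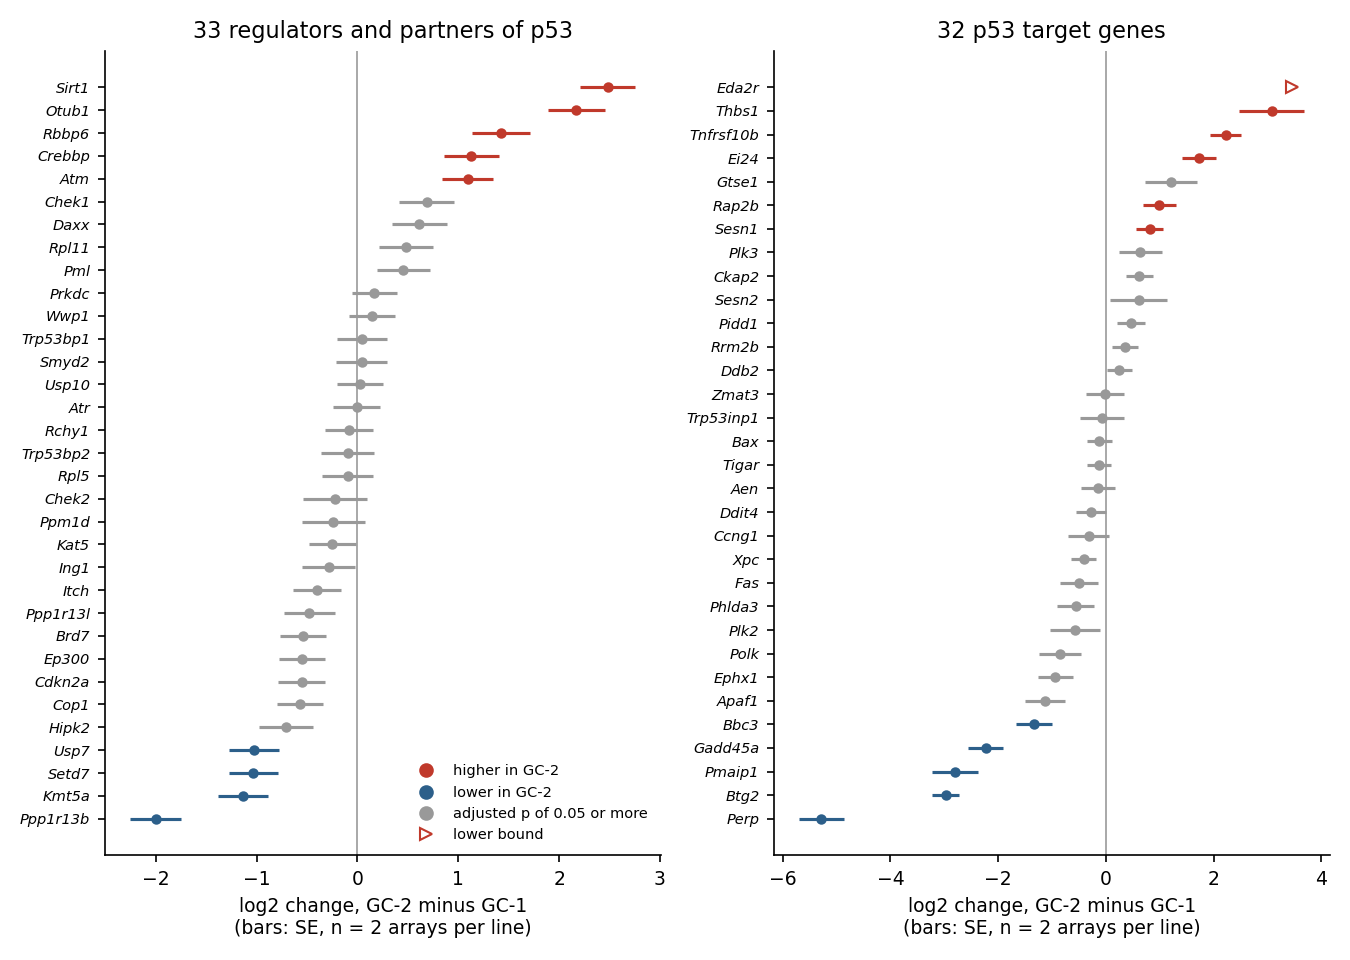
Log2 change, GC-2 minus GC-1, of the brightest probe of 33 regulators and partners of p53 (left) and 32 p53 target genes (right), with SE bars (n = 2 arrays per line) and colour where limma's adjusted p was under 0.05; the open triangle for Eda2r is a lower bound. Within 1 log2 of 0 lie 24 of 33 genes on the left and 21 of 32 on the right, and the others lie on both sides, from -2.001 to 2.48 log2 on the left and down to -5.28 log2 on the right.

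Target genes of p53 other than Mdm2 and Cdkn1a did not move together either. Of 32 tested, 6 rose and 5 fell, with a median of -0.12 log2, against 20% and 23.3% of all genes. Without GC-1 replicate 1, 2 rose and 4 fell, without GC-1 replicate 2, 3 and 4, and without GC-2 replicate 1, 4 and 8. Eda2r, a TNF receptor family gene, had signals of 145 and 15.8 in GC-2, against 5.28 and 2.51 in GC-1, where it was not well above background. It exceeded GC-1 at least 11.1-fold in GC-2, having entered the test through GC-2 alone. Its call is that of the fit to the signals as they stood (limma, adjusted p = 0.00504), not of the bound. Thbs1, the matrix protein thrombospondin 1, rose by 3.08 ± 0.61 log2, the death receptor gene Tnfrsf10b by 2.22 ± 0.28, Ei24 by 1.73 ± 0.32 and Rap2b by 0.99 ± 0.31 (limma, adjusted p from 0.00282 to 0.0468). The call of Thbs1 was lost without GC-1 replicate 1, that of Ei24 without either GC-1 replicate and that of Rap2b without each replicate in turn. On the E1A scale Thbs1 and Tnfrsf10b stood at 1.02 and 0.16 log2, short of the threshold, and Ei24 and Rap2b at -0.33 and -1.08 log2. The largest fall was that of Perp, a membrane protein gene of desmosomes and apoptosis, with signals of 340 and 73.9 in GC-2, against 14243 and 14817 in GC-1. Its change was -5.28 ± 0.41 log2, that of the cell cycle inhibitor Btg2 -2.97 ± 0.26, of the apoptosis gene Pmaip1 (Noxa) -2.81 ± 0.43, of the damage response gene Gadd45a -2.23 ± 0.32 and of Bbc3 (Puma) -1.34 ± 0.33 (limma, adjusted p from 0.000653 to 0.0235). Of the 2 probes of Btg2 and of Gadd45a, 1 each was lower, and the mean of both stood at -1.73 and -1.05 log2 (limma, adjusted p = 0.00889 and 0.0284). Fas had 1 probe higher and 1 lower. The call of Bbc3 was lost without either GC-1 replicate and without GC-2 replicate 2. Bax, Ccng1 and Zmat3, often used as readouts of p53 activity, stood at -0.12 ± 0.24, -0.32 ± 0.38 and -0.01 ± 0.34 log2, short of the threshold. On the E1A scale 1 target, Eda2r, was higher and 27 were lower.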

How the data were processed

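Trp53 family, Mdm2, Mdm4 and Cdkn1a RNA was measured on 4 one-colour arrays, 2 per line. Per the file headers, Agilent Feature Extraction 11.5.1.1 gave each spot a background-subtracted, detrended processed intensity, and the deposited flags of background and irregularity (other) are 0 or 1. The authors' deposited table holds log2 values, 1 per name. Its log2 values were not centred by gene, and their column medians were -3.64 and -3.53 in GC-2 and -3.78 and -3.67 in GC-1.

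Irregular spots (92 to 224 per array) were left out, and log2 intensities were set relative to the 75th percentile of their array. No spot was saturated. A probe entered the test (36693 probes, 24103 gene names) if 1 line or both had it well above background in each replicate and it had a value on all 4 arrays; the test was run with limma 3.58.1 in R 4.3.3, GC-2 minus GC-1, two-sided, Benjamini-Hochberg over all probes, threshold 0.05. A bound sets the brighter line against the higher of the probe's own signal and the lowest signal well above background. An adjusted p given with a bound is that of the fit, which does not use this limit. A gene is represented by its brightest tested probe. Names came from GRCm38 RefSeq accessions (32994 probes), symbols (10224) or synonyms (520), and 12867 kept the file's name. The number of arrays limits the precision. Simulated data with known changes were used to check the limma fit.

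All members are named. Of each p53 list up to 5 genes per direction past the threshold are named by size of change, besides the markers and the 5 genes nearest to Trp53. Other genes of the lists, named as examples short of the threshold, were chosen after their values were seen. Members, lists and tests were chosen with earlier results of these data known. Same-numbered arrays share a slide column, and the deviations of arrays numbered 1 correlated at r = 0.15 over 30317 probes, which are not independent. Alternatives, given at the end, changed background correction, scaling, filter, irregular spots, probe summary, replicates and block. The E1A scaling was limited to the 8 spike-in probes above background after the data were seen.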

Additional observations from a re-analysis of the deposited data

How the results depend on the processing

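The rise of Trp53 kept its direction and passed under every alternative run, between 2.33 and 5.41 log2. Scaling to the E1A probes moved most other results. It left 1680 probes higher and 29908 lower of all, 2 and 8 of the members, 5 member genes lower, 0 regulators higher and 30 lower, and 1 target higher and 27 lower. The Mdm4 probe among those 2 members and the target, Eda2r, had no measured GC-1 level. On that scale the brightest probes stood at -1.39 log2 for Trp63, -1.58 for Trp73, -1.33 for Mdm2, -1.79 for Mdm4 and -1.63 for Cdkn1a. The other probes that turned were Trp63 A_55_P1952056 at -1.64, Mdm2 A_55_P2606086 at -0.67, and Mdm4 A_51_P176954 at -1.13, A_55_P2617568 at -0.85 and A_55_P2617573 at -0.80. Rbbp6, Crebbp, Atm, Ei24 and Rap2b turned to -0.65, -0.94, -0.98, -0.33 and -1.08 log2. The spike-in level that moves these values is the only change made there. Normexp left 5037 probes lower of all and 1 member probe apart from its gene's brightest, median centring 9 regulators lower, and no filter 3 regulators higher and 2 lower. With the mean of a gene's probes 4 member genes were higher, Mdm2, Mdm4 and Cdkn1a beside Trp53, against 23.3% of all genes. The means of Mdm4 and of Cdkn1a each include a probe without a measured GC-1 level, which entered the test through GC-2 alone. By the same mean 2 regulators were lower, with Kmt5a at 0.23 and Usp7 at 0.13. Fitted to the authors' deposited values, 3 regulators and 3 targets were higher, with Sirt1 at -0.44, Kmt5a at 0.19, Usp7 at 0.0909 and Gadd45a at 0.64. The cause of these shifts was not tested. Of the calls over all probes 52.7% were higher in GC-2, against 65.3% with normexp, 39.0% with median centring and 5.32% on the E1A scale, and the median change of all probes was 0.07, 0.50, -0.25 and -1.9995 log2 in that order.

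With 1 replicate left out, which assumes that the lone array varies like the other line's, 5755 to 7401 probes were higher and 4930 to 6168 lower. Fewest of both came without GC-1 replicate 1, and 5840 were higher without GC-2 replicate 2. Of the members 4 to 6 probes were higher and 0 lower, fewest without GC-2 replicate 2 and 5 without either GC-1 replicate, and 2 to 3 differed from their gene's brightest. Among regulators 2 to 4 were higher and 1 to 3 lower, and among targets 2 to 5 higher and 4 to 8 lower. With the replicate block 8 member probes were higher and 4 differed from their gene's brightest, and the block moved no list count by over 1.5 times. Pairing rests on slide columns alone, which the labels do not name. Dim probes, such as those of Trp63 and Trp73, are limited by background.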

Other observations

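Changes on the normalized scale varied with brightness over all tested probes. Sorted by mean level into 4 equal groups, the dimmest had a median change of 0.13 log2, the next 0.34, the one after it 0.04 and the brightest -0.17, and 25.8%, 30.0%, 25.1% and 15.6% of the probes were higher in GC-2. The Mdm4, Trp73 and second Mdm2 probes lie in the 3 dimmer groups, whereas the Trp53 probe lies in the brightest. The brightest Mdm2 and Cdkn1a probes lie in the brightest group too, with changes of 0.74 and 0.44 log2.

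In the authors' deposited table, gene names whose number of probes above background differed between the 2 arrays of a line had a median difference between replicates of 1.16 log2 in GC-2 (1098 names) and 1.28 log2 in GC-1 (940 names). Where the number was equal, the median difference was 0.21 log2 (8346 names) and 0.24 log2 (9094 names).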
